A study of Neurospora crassa with 24 samples.

Results

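The genes described here are those of Neurospora crassa whose relative transcript level stayed within a narrow band while conidia germinated, on both media of the study. They were chosen by a rule on the deposited levels themselves. On each medium the log2 level of a gene at each of 4 stages was taken relative to the median gene of that stage, and the gene was a member where its highest and lowest centred levels lay less than 0.5 apart (a 1.41-fold difference) on Bird medium (BM) and on maple sap medium (MSM). Of the 9730 genes listed, 8676 had all 4 levels and lower bounds above 0 on both media, and 280 of these were members, called steady genes below. Since the same values chose the members, their narrow ranges are a description and were not tested.

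RNA came from macroconidia of the mat A strain FGSC2489, spread on cellophane over BM, a synthetic medium, or over MSM, a medium made from maple sap, and kept at a constant temperature under constant white light. Sampling fell at 15 min and then at 120, 240 and, last, 360 min, called stages 1 to 4. The times were set by how far most active spores had developed on BM and were then used on MSM as well, so that the stages of both media match in time but need not match in development. There were 3 replicates for each of the 8 combinations of medium and stage (24 libraries). All groups were of this strain, the labels name no deletion or drug, and the groups are set by medium and time. The deposited tables hold 1 level for each gene, stage and medium, estimated from all 3 replicates together, set to 1 where the gene is lowest, with a 95% interval. Values per library were not analysed here, the depth of the libraries is not in the tables, and no difference could be set against the spread between replicates. Errors below are standard errors (SE) read from the intervals on the log2 scale.

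A dormant conidium carries stored transcripts, swells by isotropic growth, sends out a germ tube and then grows as a branching hypha, and much of its transcriptome turns over on the way. Transcripts that keep their place relative to the rest matter in practice as internal standards for RT-qPCR and blots, for which genes of actin, tubulin, glycolysis, histones and ribosomes are customarily used. Because each stage was centred on its median gene, steady means within the band relative to the median gene, not constant in copies per cell. In RNA from whole cultures, a changed mix of spores and hyphae and a changed amount of RNA per cell cannot be told apart.

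Few genes kept to such a band. The median range over the 4 stages was 1.03 in log2 units on BM (a 2.04-fold difference) and 1.30 on MSM (2.46-fold), over the 8676 genes. A range below 0.5 was met by 16.2% of genes on BM, by 11.2% on MSM and by 3.23% on both. The 280 steady genes were 19.9% of the 1407 genes within the limit on BM and 28.8% of the 973 within it on MSM. The 1127 genes within the limit on BM alone had a median range of 1.09 on MSM. Of them 641 (56.9%) passed 1 log2 unit there, against 63.6% of all genes. The 693 genes within the limit on MSM alone had a median range of 0.87 on BM. There 245 (35.4%) passed 1 unit, against 51.2% of all genes. By definition both sets lie above the limit on the other medium. Across the 8676 genes the ranges on both media were loosely related (Spearman's rho 0.43, across genes, which are not independent replicates).

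**Figure D1:**
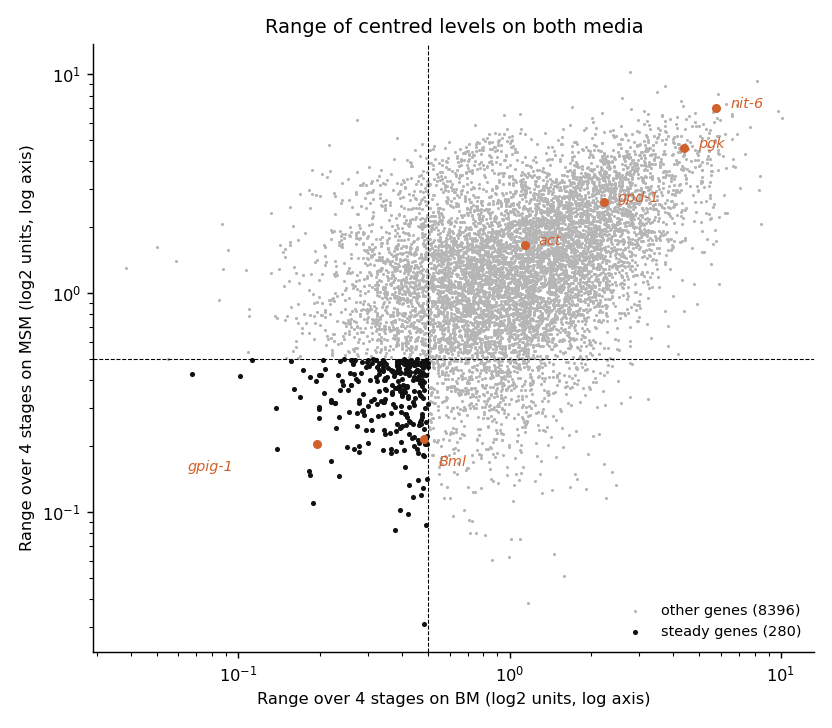
Range of the centred log2 level over 4 stages on BM (horizontal, log axis) against MSM (vertical, log axis) for 8676 genes, with dashed lines at the limit of 0.5. The 280 steady genes (black) fill the lower left corner, where gpig-1 and Bml sit, while act, gpd-1, pgk and nit-6 lie outside it on both media.

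Among the steady genes the median range was 0.39 on BM and 0.37 on MSM, equal to 1.31-fold and 1.30-fold. Only 8 of the 280 stayed below 0.25 on both media, and in 119 (42.5%) the larger of both ranges was 0.45 or more. Most were not flat within error, as the SE measures it. The larger of a gene's 2 ranges was 2.52 to 198 times the median SE of its levels, with a median of 30.7 times. It exceeded 10 times the SE in 262 genes. Low ratios, such as 2.52 for NCU07841 and 2.70 for NCU01385, do not set a course apart from a flat one. How much of the variation between replicate cultures these intervals include is not known.

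Of 20 genes known from conidia, conidiation or clock control, 1 was steady, rca-1 (5%, against 3.23% of all genes). This list and those below were drawn from genes with a symbol, of which 54 of 1099 were steady (4.91%). The median range of the list was 2.14 on BM, against 1.03 over all genes, and 1.46 on MSM, against 1.30. The other 4 genes of the list with a range of up to 0.6 on either medium were ccg-6 (0.38 on BM and 1.07 on MSM), csp-1 (1.28 and 0.45), ccg-8 (0.52 and 0.92) and ccg-15 (0.58 and 1.50). csp-2 ranged over 0.71 and 0.74, and acon-3 over 1.29 and 0.75. The conidiation genes con-6, con-8, con-10 and con-13 ranged over 2.16, 3.22, 3.47 and 5.08 log2 units on BM and 1.52, 1.14, 1.42 and 3.18 on MSM. The levels of con-13 had SE of up to 0.89 on BM and 0.29 on MSM, so its ranges are known less closely. eas, the hydrophobin of the conidial rodlet layer, ranged over 3.33 on BM and 1.91 on MSM. The regulators fl and acon-2 ranged over 2.12 and 2.33 on BM and 0.90 and 1.40 on MSM. The clock-controlled genes ccg-1, ccg-4, ccg-9, ccg-13, ccg-14 and ccg-16 had ranges between 1.06 and 3.97 on BM, and between 1.66 and 4.29 on MSM.

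The narrowest courses belonged mostly to genes without a symbol. Levels below are centred on the median gene of the stage and given about the gene's own mean, in log2 units at stages 1 to 4. Which stage of a steady gene stands highest depends on the centring: centred on the mean in place of the median, the highest stage stayed the same in 192 of the 280 on BM and 154 on MSM, and without centring in 45 and 169. NCU00183 (chromosome III, 2923935 to 2926192, positions on the NC12 assembly here and below), a conserved protein of unknown function in the study's annotation, had levels of -0.03, 0.07, -0.11 and 0.07 on BM (SE up to 0.025) and -0.07, 0.03, -0.04 and 0.08 on MSM (SE up to 0.017). Its larger range, 0.18, was the smallest of all 8676 genes. NCU07841 on chromosome III, NCU07685 on chromosome IV and NCU02418 on chromosome VII followed, with ranges on BM and MSM of 0.18 and 0.15, 0.19 and 0.11 and 0.14 and 0.19. The levels of NCU07841 had SE of up to 0.086 on BM and 0.056 on MSM, so its course is known less closely. The fifth was gpig-1 (chromosome II, 4336877 to 4338852), which acts in the synthesis of the glycosylphosphatidylinositol (GPI) anchor that holds proteins to the outer face of the plasma membrane and to the cell wall. The levels of gpig-1 were 0.08, 0.06, -0.11 and -0.03 on BM (SE up to 0.020) and 0.10, -0.11, 0.0033 and 0.01 on MSM (SE up to 0.016), so that its lowest and highest stages differed 1.14-fold on BM and 1.15-fold on MSM. A second gene of this pathway, gpip-1, had levels of 0.01, -0.10, -0.09 and 0.19 on BM (SE up to 0.019) and -0.15, -0.0047, 0.13 and 0.03 on MSM (SE up to 0.014). On MSM gpip-1 stood lowest at 15 min and highest at 240 min under each centring tried. With centring on the mean, however, gpip-1 was no longer within the limit on both media. Of the 5 GPI anchor genes with a symbol, 2 were steady against 3.23% of all genes, gpit-1 lay just outside at 0.45 on BM and 0.50 on MSM, and the widest, gpip-2, ranged over 0.62 and 0.81. NCU01288, annotated as a nuclear protein export factor, was the sixth of all genes, with ranges of 0.22 on BM and 0.17 on MSM. Among other narrow members with an annotation were NCU00432, the nucleolar protein p130 (0.33 and 0.36), NCU01961, an apurinic endonuclease (0.24 and 0.36), and the transporters NCU00821 (0.25 and 0.36) and NCU00875 (0.37 and 0.19), the last with SE of up to 0.12 on BM. fr, the frost gene of hyphal branching, ranged over 0.27 on BM and 0.41 on MSM.

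**Figure D2:**
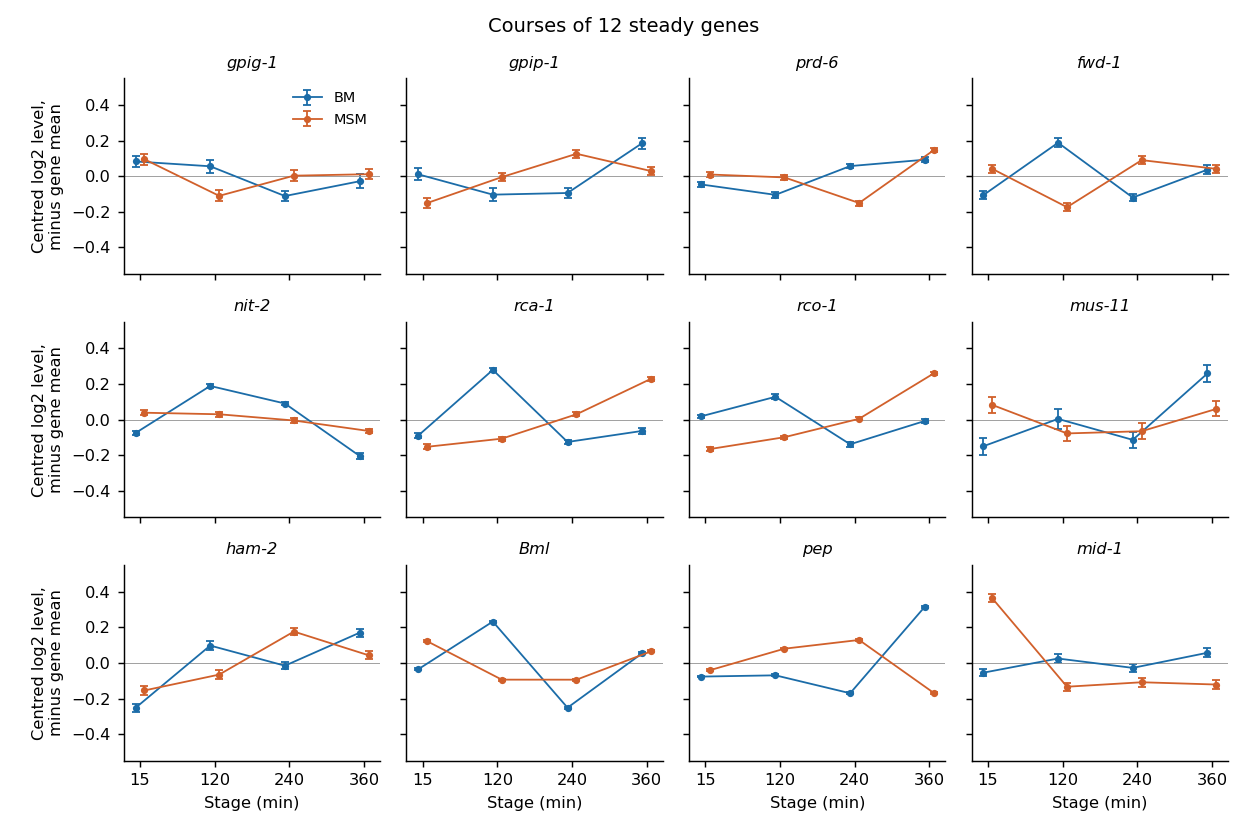
Courses of 12 steady genes: centred log2 level minus the gene's own mean over the 4 stages (vertical) against the stage in min (horizontal), on BM (blue) and MSM (orange), with bars for the 95% intervals. The points stay within 0.4 of 0 throughout, yet the bars are short beside the steps, as for mid-1 at 15 min on MSM (0.36) and pep at 360 min on BM (0.32).

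A list of 18 possible internal standards was drawn up here. It goes beyond the customary classes named above, as with por, cyc-1, vma-1 and vma-2. Of these 18 genes, 1 was steady, Bml, which encodes beta-tubulin. This share of 5.56% stands against 3.23% of all genes and 4.91% of genes with a symbol. The median ranges of the 18 were 1.52 on BM and 1.62 on MSM. As deposited, the BM levels of Bml read 1.28, 1.08, 1.16 and 1, and those on MSM 1, 1.05, 1.00 and 1.11. After centring they stood at -0.04, 0.23, -0.25 and 0.05 on BM (SE up to 0.0034) and 0.12, -0.09, -0.09 and 0.07 on MSM (SE up to 0.0031), which gives ranges of 0.48 on BM and 0.22 on MSM (1.40-fold on BM and 1.16-fold on MSM). On BM its highest level was at 120 min with centring on the median or the mean and at 15 min without centring. Bml was among the 47 members that also stayed below 0.5 on both media without centring, with centring on the mean or on the genes kept in both tables, and between their outermost bounds, and among genes with a symbol this held besides for fwd-1, cdc15, pod-4 and cia84.

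The next narrowest was pma-1, the plasma membrane proton pump, at 0.53 on BM and 0.36 on MSM, which fell inside the limit when stages were centred on their mean (0.37 and 0.45). The alpha-tubulin genes ranged further, with 1.06 and 0.63 for tba-2 and 1.10 and 1.46 for tba-1 on BM and MSM. The actin gene act ranged over 1.13 on BM and 1.67 on MSM, a 2.19-fold and a 3.18-fold difference, with its lowest level at 15 min and its highest at 360 min on both media, except on BM without centring (lowest at 120 and highest at 240 min). tef-1, the translation elongation factor, kept to 0.56 on BM but ranged over 1.64 on MSM, where it was lowest at 360 min under each centring. The ribosomal protein gene crp-2 ranged over 0.88 and 1.61. The glycolytic genes were far outside: gpd-1 differed 4.67-fold on BM and 6.15-fold on MSM, and pgk 20.97-fold and 24.1-fold, both lowest at 15 min on each medium, except gpd-1 on BM without centring (120 min). Among histone genes, hH3 ranged over 2.10 and 1.44, hH4-1 over 2.84 and 2.42, and hH4-2 over 1.51 and 1.12, the H4 genes being alike enough that their reads may not all have been told apart. The polyubiquitin gene ubi ranged over 2.02 and 1.09, the cytochrome c gene cyc-1 over 1.53 and 1.08, the porin gene por over 2.28 and 2.31, vma-1 and vma-2 of the vacuolar ATPase over 1.37 and 2.30 and over 1.84 and 2.42, and the cyclophilin gene csr-1 over 2.73 and 2.38. In all, 13 of the 18 passed 1 log2 unit on both media, and 5 passed 2 units on both. Of all genes kept, 51.2% passed 1 unit on BM and 63.6% on MSM, and 17.9% and 26.7% passed 2 units. The share of all genes that passed on both media at once was not computed. The counts of the 18 on both media thus have no like share beside them.

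**Figure D3:**
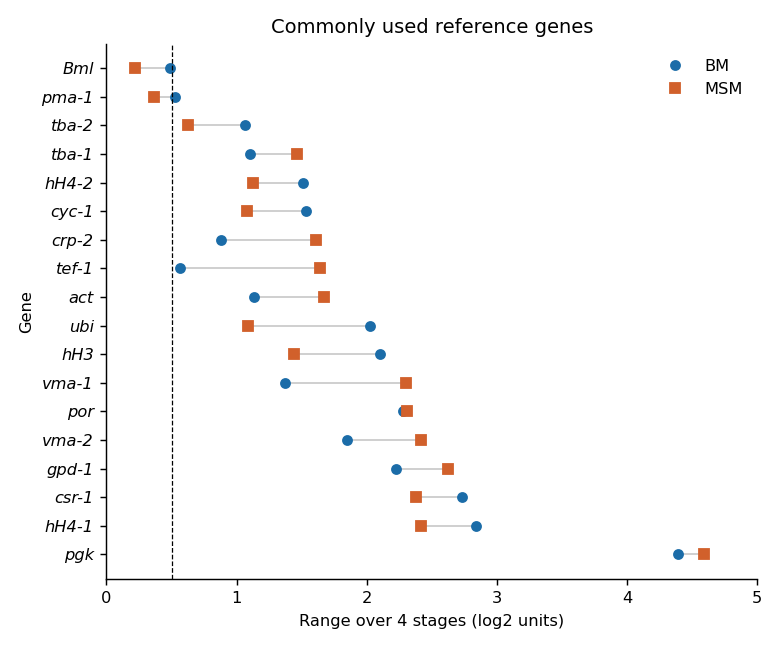
Range over 4 stages in log2 units (horizontal) of 18 genes listed as possible internal standards (vertical) on BM (circles) and MSM (squares), with a dashed line at the limit of 0.5. Bml lies inside the limit on both media, pma-1 on MSM alone, and pgk is the widest at 4.39 and 4.59.

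Some members maintain DNA and chromatin. Of 42 genes of DNA repair and recombination, 5 were steady (11.9%, against 3.23% of all genes and 4.91% of genes with a symbol). The median ranges of the list were 0.71 on BM and 0.73 on MSM, against 1.03 and 1.30 over all genes. mrc1, named after the yeast mediator of the replication checkpoint, had levels of -0.20, -0.11, 0.13 and 0.18 on BM (SE up to 0.022) and 0.20, -0.01, -0.08 and -0.11 on MSM (SE up to 0.020), higher at each later stage on BM and lower at each later stage on MSM under this centring. mus-11, the homologue of yeast RAD52 in recombination, stood at -0.15, 0.004, -0.11 and 0.26 on BM (SE up to 0.030) and 0.08, -0.08, -0.07 and 0.06 on MSM (SE up to 0.024). mus-21, the ATM/Tel1 kinase of the damage response, ranged over 0.42 on BM and 0.44 on MSM, mus-52, the Ku80 subunit that binds broken ends, over 0.48 on BM and 0.28 on MSM, and uvs-6, the RAD50 homologue, over 0.48 on BM and 0.43 on MSM. On BM, mus-11, mus-21 and mus-52 each had their highest level at 360 min and their lowest at 15 min, an order that mus-21 and mus-52 lost with mean centring and all lost without centring. spo11, which makes the breaks of meiosis, was the widest of the list, at 0.53 on BM and 3.34 on MSM.

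Of 54 chromatin modifiers and remodellers, 4 were steady (7.41%, against 3.23% of all genes and 4.91% of genes with a symbol). The remodelling factor gene crf6-1 had levels of 0.05, 0.15, -0.05 and -0.15 on BM (SE up to 0.0072) and 0.13, -0.11, -0.07 and 0.05 on MSM (SE up to 0.0074). The bromodomain genes bdp-3 and bdp-2 ranged over 0.44 on BM and 0.32 on MSM and over 0.47 on BM and 0.26 on MSM, and the histone deacetylase gene hda-3 over 0.50 on BM and 0.22 on MSM. cen-c, a centromere protein gene outside this list, ranged over 0.42 on BM and 0.49 on MSM. The genes of the histones themselves were not among them, as 0 of 9 were steady and their median ranges were 1.70 and 1.23. In the part of the study's annotation used here, which covers the first 1753 genes, members also included NCU00424, annotated as the cohesin subunit PDS5 (0.20 and 0.30 on BM and MSM), and NCU01445, another sister chromatid cohesion protein (0.34 and 0.24). NCU00941, whose annotation names the acetyltransferase GCN5, was a member as well (0.40 and 0.48). Whether it is the GCN5 gene itself or a relative was not checked. NCU01542, annotated as a relative of the coactivators CBP and P300, ranged over 0.17 on BM and 0.34 on MSM. NCU01565, annotated as the large subunit of RNA polymerase II, ranged over 0.46 on BM and 0.42 on MSM.

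Of 18 genes of the circadian clock, 3 were steady (16.7%, against 3.23% of all genes and 4.91% of genes with a symbol). The oscillator of this fungus runs on the protein FREQUENCY, whose phosphorylation and turnover set its pace. fwd-1, the F-box protein that marks FREQUENCY for degradation, had levels of -0.11, 0.19, -0.12 and 0.04 on BM (SE up to 0.013) and 0.04, -0.17, 0.09 and 0.04 on MSM (SE up to 0.012). prd-6, the RNA helicase UPF1 of nonsense-mediated decay, stood at -0.05, -0.10, 0.06 and 0.09 on BM (SE up to 0.0086) and 0.01, -0.01, -0.15 and 0.15 on MSM (SE up to 0.0072). rco-1, a corepressor related to yeast Tup1, stood at 0.02, 0.13, -0.14 and -0.01 on BM (SE up to 0.0066) and -0.17, -0.10, 0.0047 and 0.26 on MSM (SE up to 0.0055). On MSM rco-1 was lowest at 15 min and highest at 360 min under each centring. It was not within the limit on both media with centring on the mean. frh, the RNA helicase bound to FREQUENCY, was the widest gene of the list at 0.79 on BM and 2.99 on MSM.

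Of 60 transcription factor genes, 5 were steady (8.33%, against 3.23% of all genes and 4.91% of genes with a symbol). nit-2, the GATA factor that turns on nitrogen catabolic genes, had levels of -0.08, 0.19, 0.09 and -0.20 on BM (SE up to 0.0078) and 0.04, 0.03, -0.005 and -0.06 on MSM (SE up to 0.0070). Its course was one of the flattest on MSM, with a range of 0.10 there, and wider on BM, where it was lowest at 360 min under each centring. The reductase gene nit-6 of nitrate assimilation, by contrast, had the widest range of all genes of nutrient acquisition, 5.77 on BM and 6.998 on MSM. pco-1, which regulates purine catabolism, stood at -0.22, -0.11, 0.12 and 0.22 on BM (SE up to 0.015) and -0.18, -0.06, 0.01 and 0.23 on MSM (SE up to 0.013), lowest at 15 min and highest at 360 min on MSM under each centring. rca-1, a Myb factor related to a conidiation regulator of Aspergillus, stood at -0.09, 0.28, -0.13 and -0.06 on BM (SE up to 0.0079) and -0.15, -0.11, 0.03 and 0.23 on MSM (SE up to 0.0070). tah-2 and col-24 ranged over 0.37 on BM and 0.35 on MSM and over 0.44 on BM and 0.48 on MSM. preg, the cyclin of phosphate signaling, had levels of 0.19, -0.02, -0.21 and 0.04 on BM (SE up to 0.011) and 0.30, -0.12, -0.13 and -0.05 on MSM (SE up to 0.0096) and was highest at 15 min on both media under each centring.

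The cytoskeleton held the largest share among lists of more than 5 genes, with 4 of 22 genes steady (18.2%). The share was 3.23% over all genes and 4.91% over genes with a symbol. Median ranges of the list were 0.66 on BM and 0.52 on MSM. Besides Bml the steady genes were ro-6, ro-11 and ro-12, genes of the ropy class. Mutants of this class distribute nuclei poorly along the hypha, and the class includes subunits of dynein and dynactin. ro-11 had levels of -0.13, 0.20, -0.06 and -0.02 on BM (SE up to 0.011) and -0.21, -0.11, 0.08 and 0.25 on MSM (SE up to 0.011), and ro-6 had levels of -0.31, 0.15, -0.0032 and 0.17 on BM (SE up to 0.012) and -0.14, 0.01, 0.09 and 0.04 on MSM (SE up to 0.011). ro-12 lay close to the limit at 0.41 on BM and 0.50 on MSM. With centring on the mean, ro-11 was not within the limit on both media. The list's widest gene, fim, the actin-bundling fimbrin, ranged over 1.38 and 2.36. Of 15 polarity genes, 1 was steady, pod-4, at 0.40 on BM and 0.34 on MSM, while pod-5 ranged over 1.03 and 4.70.

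Of the signaling lists, that of MAP kinase cascades and cell fusion had 2 of 34 genes steady (5.88%). Shares here stand against 3.23% of all genes and 4.91% of genes with a symbol. In the cascade of the MAP kinase MAK-2, which serves cell fusion between germlings, the upper kinase nrc-1 had levels of 0.06, 0.29, -0.18 and -0.16 on BM (SE up to 0.015) and 0.11, -0.13, -0.10 and 0.12 on MSM (SE up to 0.012). ham-2, a component of the STRIPAK complex needed for the same fusion, stood at -0.25, 0.10, -0.02 and 0.17 on BM (SE up to 0.014) and -0.15, -0.07, 0.18 and 0.04 on MSM (SE up to 0.013), lowest at 15 min on MSM under each centring. With centring on the mean, ham-2 was not within the limit on both media. In this list ham-7 was widest at 4.09 and 2.97. Of 68 protein kinase genes named by family, 4 were steady (5.88%), ptk-2 at 0.37 on BM and 0.28 on MSM, stk-46 at 0.26 on BM and 0.43 on MSM, mdk-1 at 0.48 on BM and 0.18 on MSM and prk-6 at 0.48 on BM and 0.33 on MSM, and stk-21 ranged over 1.73 and 4.93. The phosphatase gene pph-3 was the steady gene among 11 (9.09%), at 0.47 on BM and 0.40 on MSM. None of 19 genes of heterotrimeric G proteins and cAMP was steady, and pkac-1, a catalytic subunit of protein kinase A, ranged over 4.03 and 5.19. mid-1, a subunit of a stretch-activated calcium channel, had levels of -0.05, 0.02, -0.03 and 0.06 on BM (SE up to 0.013) and 0.36, -0.13, -0.11 and -0.12 on MSM (SE up to 0.013), within 0.11 on BM and highest at 15 min on MSM under each centring. cdc15, annotated as a kinase related to MEKK, ranged over 0.39 on BM and 0.38 on MSM.

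Among organelle genes, steady members were scattered, at shares set here against 3.23% of all genes and 4.91% of genes with a symbol. Of 49 nuclear genes of the respiratory chain, its alternative enzymes and ATP synthase, 2 were steady (4.08%). pep, which encodes core protein I of complex III and subunit beta of the mitochondrial processing peptidase, had levels of -0.08, -0.07, -0.17 and 0.32 on BM (SE up to 0.0032) and -0.04, 0.08, 0.13 and -0.17 on MSM (SE up to 0.0029). nuo6.6, a complex I gene, ranged over 0.30 on BM and 0.49 on MSM, and aod-3, an alternative oxidase gene, over 2.01 and 5.12. tob37, of the complex that sorts proteins into the mitochondrial outer membrane, was the steady gene among 31 of import (3.23%), at 0.33 on BM and 0.47 on MSM. The peroxins pex2 and pex20 ranged over 0.49 on BM and 0.47 on MSM and over 0.26 on BM and 0.50 on MSM, 2 of 22 peroxisome genes (9.09%). By contrast hex-1, the protein of the Woronin body that plugs septal pores, ranged over 1.80 and 3.30. cat-4, a catalase gene, stood at 0.34 on BM and 0.40 on MSM. Of 68 glycoside hydrolase genes, 4 were steady (5.88%): gh2-3 at 0.45 on BM and 0.20 on MSM, gh28-2 at 0.46 on BM and 0.45 on MSM, gh45-1 at 0.41 on BM and 0.48 on MSM and gh76-6 at 0.28 on BM and 0.49 on MSM. The levels of gh28-2 had SE of up to 0.090 on BM, so its course is known less closely.

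**Figure D4:**
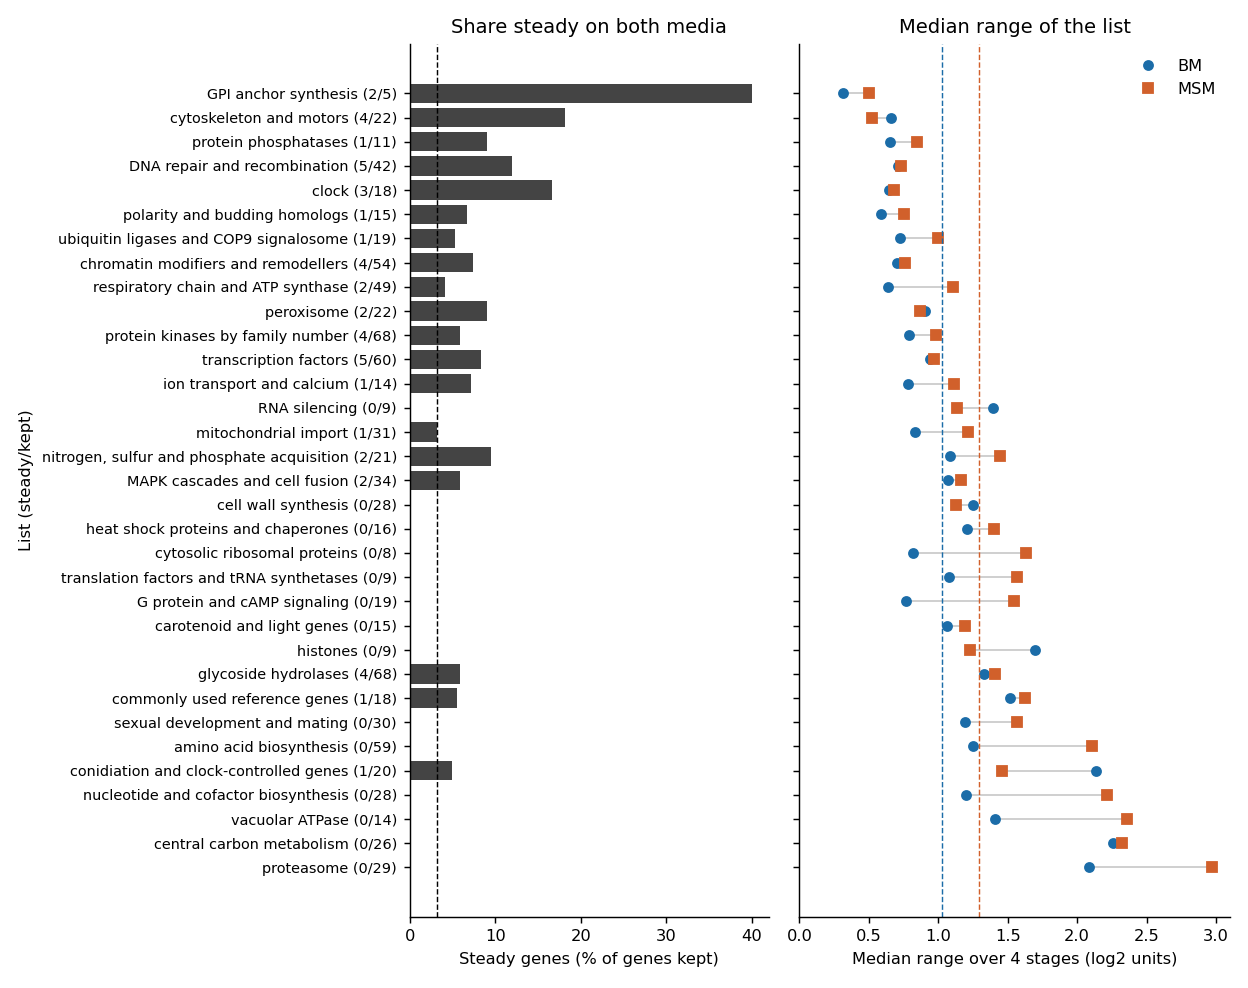
Left, percent of the kept genes of each of 33 lists that were steady on both media, with counts in the labels and a dashed line at the 3.23% of all genes. Right, median range of each list in log2 units on BM (circles) and MSM (squares), with dashed lines at the medians of all genes; lists are ordered by the median of the larger range, from GPI anchor synthesis to the proteasome.

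Another 14 lists held no member. With 3.23% of all genes steady, a count of 0 says little in lists of this size, and their median ranges are set here against 1.03 on BM and 1.30 on MSM over all genes. The 29 proteasome genes had median ranges of 2.08 on BM and 2.97 on MSM, the narrowest of them, rpn-12, still ranged over 1.54 on 1 medium, and none was within the limit on either. The 59 genes of amino acid biosynthesis (medians 1.25 and 2.11), the 28 of nucleotide and cofactor biosynthesis (1.20 and 2.21), the 26 of central carbon metabolism (2.26 and 2.32), the 14 of the vacuolar ATPase (1.41 and 2.36) and the 28 of cell wall synthesis (1.25 and 1.13) held none, as did the 30 of sexual development (1.19 and 1.56). The 8 cytosolic ribosomal protein genes had a median range of 0.81 on BM and 1.63 on MSM, and 2 of them were within the limit on BM and 0 on MSM, against 16.2% and 11.2% of all genes. A difference between the media was not tested. Of the 33 lists, 19 held a member and 18 had a steady share above that of all genes, a number that was 7 when the levels were not centred. The lists hold only genes with a symbol, whose steady share was itself higher (4.91%), and some genes stand in more than 1 list.

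The study's annotation describes genes without a symbol as well. In its part used here 1645 genes were kept, of which 59 were steady (3.59%), and 1182 had a class of the KOG scheme of orthologous groups, of which 51 were steady (4.31%). The shares were 3 of 21 in replication, recombination and repair (14.3%), 5 of 40 in cell cycle control (12.5%), 3 of 28 in the cytoskeleton (10.7%), 1 of 13 in cell wall and membrane biogenesis (7.69%), 7 of 92 in transcription (7.61%), 7 of 94 in signal transduction (7.45%), 5 of 68 in RNA processing (7.35%) and 3 of 43 in chromatin structure (6.98%). They were 3 of 54 in intracellular trafficking and 1 of 18 in nuclear structure (5.56% each), 2 of 42 in energy production (4.76%), 5 of 156 in general function only (3.21%), 2 of 72 in translation (2.78%), 2 of 96 of unknown function (2.08%) and 1 of 53 in carbohydrate metabolism (1.89%). None was steady among 47 genes of amino acid, 43 of lipid, 36 of inorganic ion, 25 of coenzyme, 20 of secondary metabolite and 16 of nucleotide transport and metabolism, nor among 17 genes in 3 smaller classes, and 1 of 88 was steady in protein modification, turnover and chaperones, a glutaredoxin, NCU00974. Members of the RNA processing class were NCU01929, a poly(A) ribonuclease subunit (0.38 and 0.08 on BM and MSM), NCU01696, the cleavage factor subunit Pcf11 (0.43 and 0.47), NCU00219, the splicing coactivator SRm300 (0.47 and 0.34), NCU01180, an RNA helicase (0.41 and 0.35), and NCU01793, with an RNA recognition motif (0.41 and 0.36). Members of the signaling class included NCU00656, the lipid kinase VPS34 (0.32 and 0.40), and NCU00324, the MAP kinase partner Sin1 (0.45 and 0.44). The genes named for the RNA processing and signaling classes, and uvs-6, col-24, cia84, NCU00941, NCU01565, NCU00974 and NCU04320, were picked after their values were seen.

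Within the limit, steady genes seldom had their highest stage in common on BM and MSM. The highest stage was the same on both media in 71 of the 280 steady genes (25.4%), against 43.1% of all genes kept, and the lowest in 63 (22.5%), against 38.4%. The net difference from 15 to 360 min had the same sign on both media in 147 (52.5%), against 68.4% of all genes, with 90 higher and 57 lower at 360 min on both. Stages and signs were read from the same levels that chose the members. With centring on the mean, 55% of members kept their highest stage on MSM, against 87.6% of all genes. The lower shares are thus a description of narrow courses and were not tested. On BM 231 steady genes had their highest level at 120 or 360 min and 228 had their lowest at 15 or 240 min. Of all genes kept, 28.2% were highest on BM at 120 min and 43.7% at 360 min, against 42.5% and 40% of steady genes. Lowest on BM at 15 and 240 min were 37.03% and 28.8% of all genes, against 40% and 41.4% of steady genes. On MSM 220 steady genes were highest at 15 or 360 min and 182 lowest at 120 or 240 min. Of all genes kept, 46.2% were highest on MSM at 15 min and 40.6% at 360 min, against 42.1% and 36.4% of steady genes. Lowest on MSM at 120 and 240 min were 22.2% and 18.5% of all genes, against 38.9% and 26.1% of steady genes. Highest levels at these stages were thus common among all genes and not particular to steady genes. With stages centred on the mean, 149 of the 280 were highest on BM at 120 or 360 min, and in the deposited levels 0 were, since all 280 had their lowest level at 120 or 360 min.

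The centring removes a step of the median gene between stages. As deposited, the median gene stood at 1.55, 1.08, 1.63 and 1.14 times its lowest stage on BM and at 1.22, 1.48, 1.42 and 1.40 times on MSM, a spread of medians of 0.59 and 0.28 in log2 units. A gene that followed the median exactly would thus range over 0.59 on BM as deposited. Without centring the steady genes had a median range of 0.56 on BM and 0.35 on MSM, with 104 of the 280 below 0.5 on BM and 225 on MSM. The range itself does not depend on the order in which the stages are taken.

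The limit runs through a continuous spread of ranges. The members with a symbol closest inside were ro-12, hda-3, mid-1, pex20 and cen-c, with larger ranges of 0.49 to 0.50. Just outside were qa-1F, the activator of quinic acid genes, at 0.05 on BM and 0.50 on MSM, gpit-1, rgf3 at 0.44 and 0.50, and ngf-1 at 0.15 and 0.50, and of all genes NCU03058 and NCU01305 lay as close. In the band of 0.05 to each side of the limit there were 119 members and 111 genes that were not.

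The steady genes had features that the rule did not use. They were longer, with a median of 3114.5 bp from start to end with introns against 2274 bp over all genes kept with a position. Of the steady genes 15.0% were over 5000 bp long, against 5.48%, and 2.14% were under 1000 bp, against 6.72%. The steady share went from 1.20% of genes of up to 1000 bp to 2.28% at 2001 to 2500 bp and 8.84% above 5000 bp. Longer genes also had narrower intervals, with a median SE on MSM of 0.13 in the shortest class and 0.012 in the longest, and the median SE of the steady genes was 0.014 on BM and 0.013 on MSM against 0.020 and 0.018 over all genes. Among the 3935 genes whose SE lay in the lower part of the ranking on both media (at or below the median), the steady genes still had a median length of 3318 bp against 2620 bp, and the share was 3.77% up to 1000 bp (2 of 53 genes), 1.21% at 1001 to 1500 bp, 3.30% at 2001 to 2500 bp and 10.98% above 5000 bp. The part of precision in this relation was not tested.

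**Figure D5:**
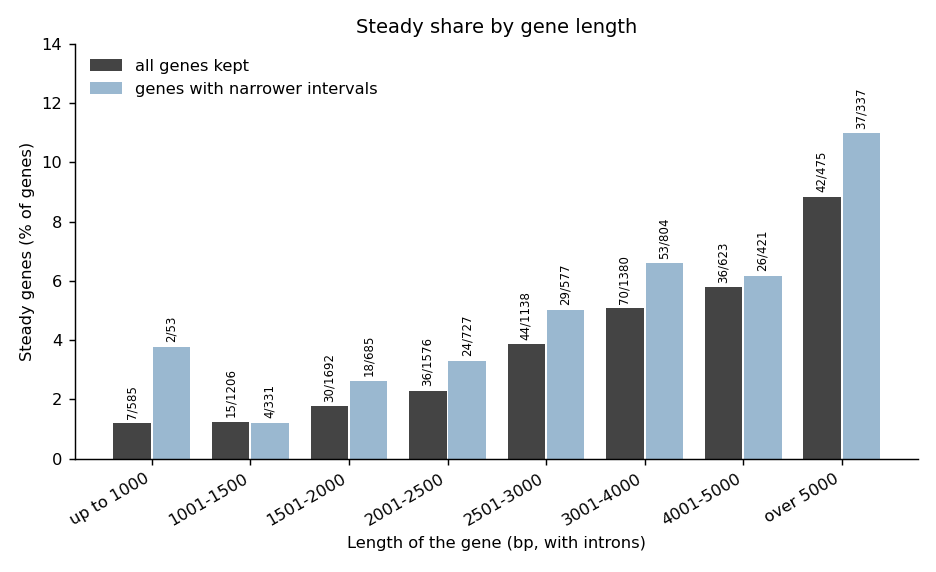
Percent of genes that were steady (vertical) by gene length in bp with introns (horizontal), for all genes kept with a position (dark) and for those with intervals at or below the median width on both media (light), with steady and total counts above the bars. The share is highest above 5000 bp in both sets, at 8.84% and 10.98%.

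The steady genes lay on all 7 chromosomes, and the steady share ran from 2.45% of the genes kept on chromosome VI to 4.06% on chromosome III. They did not sit side by side more than others do: of the 560 positions next to a steady gene in the order of genes kept, 18 were held by another steady gene (3.21%, against 3.23% of all genes). The 9 neighbouring pairs included NCU04320 with mrc1 on chromosome V, NCU02548 with pep on chromosome I and NCU01005 with cia84, an assembly factor of complex I, on chromosome V. A symbol was given to 54 of the 280 (19.3%), against 12.7% of all genes kept, so that 226 steady genes have none.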

How the data were processed

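RNA of 24 libraries was sequenced as paired-end reads from a stranded kit. The authors trimmed the reads, aligned them to the OR74A genome with TopHat2 2.0.12, counted those of unique position per gene (HTSeq 0.6.1p1) and passed the counts to LOX, whose relative levels pool the 3 replicates. The deposited values are ratios to a gene's lowest stage on 1 medium, with distances to the 95% bounds, and cannot be compared between genes or media in height. Column numbers 1 to 4 were taken as 15, 120, 240 and 360 min.

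Genes with all levels and lower bounds above 0 were kept. Log2 levels were centred on the stage median over kept genes of the table, the range over stages was compared with 0.5, and SE came from the width of the interval. The calculation of the range was checked on simulated flat genes and on genes shifted far past the limit. That check says nothing of genes near the limit. Symbols, positions and lengths came from RefSeq (NC12), which held 9729 of 9730 identifiers. Python 3.11.15, numpy 2.4.6, pandas 2.3.3 and matplotlib 3.10.9 were used.

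With 1 pooled value per stage no test was run. Members and lists were chosen with earlier results of these data known, and symbols of uncertain role were taken out of the lists. The rule for named genes covers the 15 narrowest members with a symbol, the 5 narrowest of all and 10 narrowest annotated, all internal standards and conidial genes, up to 4 members and the widest gene of each list, and the genes next to the limit, of which 1 is not reported here. The text names every member under it and leaves out part of the widest genes of lists. No member is named by the paper. Lists from keywords in annotations were made, matched too broadly and are not reported. Protein length, promoters and sequences were not analysed here. Other limits, centrings, bounds and stages were tried.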

Additional observations from a re-analysis of the deposited data

How the results depend on the processing

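The number of steady genes, 280 of 8676, moved with the limit: 8 at 0.25, 89 at 0.4, 535 at 0.6 and 2122 at 1 log2 unit. Without centring it was 169, of which 78 were among the 280, and without a stage it was 1034 (stage 1), 509 (stage 2) or 841 (stage 4), against 402 without stage 3, sets that hold the 280 by construction. Between the outermost bounds it was 138, all members. Centring on the mean gave 419 (216 shared), centring on the median of genes kept in both tables gave 276 (270 shared), and 274 of the 280 had an SE under 0.1 at every level. Of the members named here by symbol, gpip-1, rco-1, ham-2, bdp-3, ro-11, cat-4, fr, gh28-2, tob37, pex2 and pex20 were not among the 216. Members with a symbol among the 78 were fwd-1, cdc15, pod-4, mus-11, cia84, gh2-3, tng, prk-6, ro-6, Bml and cen-c. The number of lists with a steady share above that of all genes was 18 of 33, 17 at a limit of 0.6 and 7 without centring. The highest stage was the same on both media in 71 members and in 68 with centring on the mean. No paired analysis was possible because the tables pool the replicates, and for the same reason no replicate could be left out. Intervals cover the error of the pooled estimate, and depth per library was not analysed here.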
